A study of Mus musculus with 469 samples.

Results

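Olfactory sensory neurons that carried abundant Omp 14 days after olfactory bulbectomy were compared with Omp-rich neurons of uninjured reference epithelium, cell by cell, in single-cell RNA libraries of the mouse. The comparison held 52 libraries, 11.1% of the series. Of these, 16 came from the 50 libraries of the OMP-eGFP sort at 14 days and 36 from the reference, which had 96 libraries in each of 2 runs. The cells were chosen by measured values. A library entered when it had 1000 to 10000 genes at a value of 1 or more, an Omp level of at least 1000 CPM, and a summed level below 5000 CPM for 7 genes of sustentacular cells, the supporting cells of the epithelium (Cyp2g1, Cyp2a5, Cyp1a2, Ermn, Cbr2, Sec14l3 and Ugt2a1). CPM is the share of a library's deposited signal, expressed per 1000000. Because Omp and the 7 sustentacular genes chose the libraries, their values are given only as a description.

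The OMP-eGFP cells were eGFP-positive cells of B6 OMP-eGFP mice, 8 weeks old, in which the reporter follows the Omp promoter. The labels did not say whether the reporter replaces an Omp allele. The reference cells were an unsorted sample of uninjured epithelium from B6;129SF1/J (F1) wild type mice of the same age, without a reporter. Cells were captured with the Fluidigm C1 system, which isolates single cells in a microfluidic chip and copies their polyadenylated RNA, and libraries were made with Nextera XT. The labels named no animal and no sex. With no animals to count, each group was treated as 1 sample, and the differences below have neither a test nor a replicate check. Strain, reporter, sort, injury and capture run differ together between the groups and cannot be told apart. The series has no uninjured OMP-eGFP sort among its labelled groups. Engrafted OMP-eGFP cells, labelled as olfactory epithelium after transplantation, and uninjured Neurog1-eGFP cells are given below as a description only. The labels gave both an age of 8 weeks. The data do not show whether a given cell at 14 days was born after the operation.

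Bulbectomy removes the olfactory bulb, the target of the axons of olfactory sensory neurons. The axotomised neurons die, and basal cells of the epithelium then produce new neurons. A newly born neuron first carries Gap43, a growth cone protein, and later Omp, which marks the mature state. Each mature neuron chooses 1 odorant receptor gene, moves the receptor to its cilia, and signals through the G protein Gnal, the cyclase Adcy3 and the channel built on Cnga2. The epithelium is divided into zones. Dorsal neurons carry Nqo1, a quinone reductase, and Acsm4, an acyl-CoA synthetase family member, while ventral neurons carry the adhesion molecule Ncam2 and the semaphorin receptor Nrp2.

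The cells passed the limits by different margins. Omp ranged from 1090 to 5982 CPM, with a median of 2238, in the 16 OMP-eGFP cells. In the 36 reference cells it ranged from 1111 to 20264 CPM, with a median of 4463. The reference thus extended to higher Omp levels. The nearest excluded library below the Omp limit stood at 947 CPM in the OMP-eGFP sort and at 996 CPM in the reference. Of the 50 OMP-eGFP libraries, 8 had too few genes, 25 fell below the Omp limit and 1 was excluded by its sustentacular sum alone (34460 CPM). Of the reference libraries, 53 had too few genes, 9 had too many, 57 fell below the Omp limit and 37 were excluded by the sustentacular sum alone, the lowest of them at 5465 CPM.

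**Figure D1:**
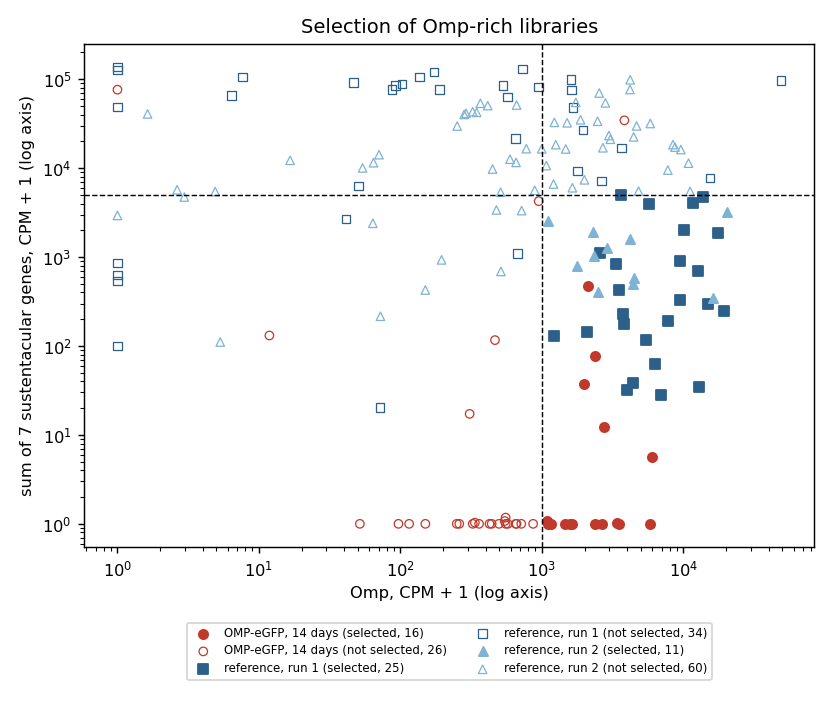
Level of Omp (x axis, CPM + 1, log scale) against the summed level of 7 sustentacular genes (y axis, CPM + 1, log scale) in each library with 1000 to 10000 genes, with selected libraries filled and the limits dashed. The selected OMP-eGFP cells lie at sustentacular sums of 0 to 472 CPM, and the selected reference cells reach 4959 CPM.

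Sustentacular RNA and depth moved with the groups. The sustentacular sum was 0 in 8 of 16 OMP-eGFP cells and 100 CPM or more in 1 of them. In the reference it was never 0, had a median of 538 CPM and was 100 CPM or more in 31 of 36 cells. The number of genes per cell was 1842 to 4257 (median 3200) in OMP-eGFP cells and 1082 to 3287 (median 2066) in reference cells. The recovered depth had a median of 1146876 fragments in OMP-eGFP cells and 464306 in reference cells (429823 in run 1, 760570 in run 2). Thinned to 100000 fragments each, which left out 1 reference cell, the cells still held a median of 2772 and 1704 genes. A gene missing from a cell was not found at that cell's depth, and whether it was absent cannot be told. The libraries carried no molecular identifiers, so PCR copies were counted as separate fragments, and the intervals below cover the counting of cells only.

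Across 9107 genes with a mean of 5 CPM or more in either group, 2177 (23.9%) were at least 2-fold higher in OMP-eGFP cells than in the pooled reference and than in each reference run, and 1090 (12%) were at least 2-fold lower. These shares are the background against which the counts below are read. Ratios are log2 of mean CPM + 1 and understate low genes. Their median over all genes was −0.08 against the pooled reference, 0.10 against run 1 and 0.56 against run 2. The 2 reference runs themselves differed by 2-fold or more in 6146 of the 9107 genes (67.5%). Means also leaned on single cells. When the library with the highest value in the higher group was left out for each gene, a setting chosen after seeing the data, 15.3% of 7060 tested genes were higher and 5.13% lower, and these included 31.4% of the 2177 and 16.6% of the 1090 genes above.

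The genes of odorant detection had similar pooled levels in the 2 groups, while the 2 reference runs lay on either side. Gnal ranged from 2540 to 9888 CPM (median 5667) in OMP-eGFP cells and from 0 to 16996 CPM (median 5483) in reference cells, with a log2 ratio of −0.01. The channel subunit gene Cnga2 was found, here and below at 10 CPM or more, in 15 of 16 OMP-eGFP cells and in 31 of 36 reference cells, at means of 1824 and 2315 CPM. The median of Stoml3, whose protein belongs to the stomatin family, was 4319 CPM in OMP-eGFP cells and 4328 CPM in reference cells. The gene was found in 16 of 16 and 35 of 36 cells, and its reference means were 5634 CPM in run 1 and 1325 CPM in run 2. The medians of all these genes lay inside the range of the other group.

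Of 21 signal transduction genes in the table, 18 passed the level filter. Among them 1 was called higher (5.56%) and 0 lower, beside 23.9% and 12% of all genes. Their median ratio was −0.01 pooled, −0.18 against run 1 and 0.80 against run 2. The channel subunit gene Cnga4 had log2 ratios of −1.40 against run 1 and 2.34 against run 2, and the chloride channel gene Ano2 of −0.15 and 3.16. The gene called higher was Pde4a, a cyclic AMP phosphodiesterase of the olfactory cell body. Pde4a was found in all 16 OMP-eGFP cells (30.6 to 2542 CPM, median 331.6) and in 29 of 36 reference cells (0 to 2325 CPM, median 89.4), with a log2 ratio of 1.17. The ranges overlapped over most of their length. Cngb1, a further channel subunit, was listed at 0 in all 52 cells. Of 15 markers of mature neurons, 14 passed, 0 were called higher and only Faim2, an inhibitor of Fas-mediated cell death, was called lower. This call rested on the means, 256.5 CPM in OMP-eGFP cells and 565.1 CPM in reference cells. The medians of Faim2 ran in the opposite order, 153.5 and 73.4 CPM. The gene was found in 15 of 16 OMP-eGFP cells and 26 of 36 reference cells. The median ratio of the mature marker list was −0.14 pooled, −0.34 against run 1 and 0.66 against run 2.

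All 12 genes that serve receptor choice and transport passed, and 1 was higher (8.33%) and 0 lower, beside 23.9% and 12% of all genes. Their median was −0.05 pooled, 0.02 against run 1 and 0.19 against run 2. Rtp1, a chaperone that carries receptors to the surface, was found in 15 of 16 OMP-eGFP cells and 28 of 36 reference cells, at means of 1075 and 872 CPM. The transcription factor gene Lhx2, which acts at receptor enhancers, averaged 93.8 CPM in OMP-eGFP cells and 209.2 CPM in reference cells, and was not called because the ratio to run 2 was −0.69. The single call was Kdm1a, the histone demethylase needed for the onset of receptor expression. Kdm1a was found in 7 of 16 OMP-eGFP cells (0 to 1573 CPM, median 4.17) and in 7 of 36 reference cells (0 to 328.4 CPM, median 0), with a log2 ratio of 2.93.

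Of 5 zonal genes, 2 were called higher (40%) and 1 lower (20%), beside 23.9% and 12% of all genes. The 2 ventral genes were found in more OMP-eGFP cells and the 2 dorsal genes in more reference cells. To show where these genes begin, the 250 bases before the start of each were taken from RefSeq (mouse build GRCm38.p6, not the mm9 build of the deposited tables), each read 5′ to 3′ on the gene's own strand. All 4 genes had an entry.
Ncam2, chr16:81200447-81200696, plus strand: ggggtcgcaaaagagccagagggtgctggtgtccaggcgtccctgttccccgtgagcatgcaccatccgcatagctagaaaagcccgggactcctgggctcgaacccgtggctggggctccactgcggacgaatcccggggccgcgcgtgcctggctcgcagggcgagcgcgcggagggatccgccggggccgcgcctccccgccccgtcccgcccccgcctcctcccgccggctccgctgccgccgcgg
Nrp2, chr1:62703067-62703316, plus strand: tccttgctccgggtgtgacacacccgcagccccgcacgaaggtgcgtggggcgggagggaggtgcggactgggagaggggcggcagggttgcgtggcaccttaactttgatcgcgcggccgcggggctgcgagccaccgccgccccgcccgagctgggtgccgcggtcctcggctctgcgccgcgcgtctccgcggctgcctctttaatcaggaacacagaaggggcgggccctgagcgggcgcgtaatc
Nqo1, chr8:107403206-107403455, minus strand: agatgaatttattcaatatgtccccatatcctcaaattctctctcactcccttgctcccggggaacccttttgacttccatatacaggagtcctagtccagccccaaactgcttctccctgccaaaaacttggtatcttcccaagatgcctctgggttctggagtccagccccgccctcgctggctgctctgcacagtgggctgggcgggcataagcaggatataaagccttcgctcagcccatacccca
Acsm4, chr7:119689776-119690025, plus strand: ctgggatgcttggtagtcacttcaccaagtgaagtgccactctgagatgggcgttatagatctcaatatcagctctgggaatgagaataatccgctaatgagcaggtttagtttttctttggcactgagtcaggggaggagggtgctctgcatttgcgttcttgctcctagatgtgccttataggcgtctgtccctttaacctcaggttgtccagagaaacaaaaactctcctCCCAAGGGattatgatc
The promoter stretches of Ncam2 and Nrp2 had a GC content of 75.2% and 72.4%, and those of Nqo1 and Acsm4 53.2% and 47.2%. Capitals mark a match, on either strand, to CCCNNGGG, the core of the motif of Ebf factors. The single match lay in Acsm4. This core occurs in 11.8% of 32851 RefSeq promoter entries of the same length. No match to TAATTA, a homeodomain motif (4.84% of entries), or to TGACNNNGC, the antioxidant response motif (10.2% of entries), lay in these windows. No overlap between motifs arose. A match describes letters and is not a site.

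Ncam2 ranged from 0 to 2663 CPM (median 15.7) in OMP-eGFP cells and from 0 to 289.4 CPM (median 0) in reference cells. Counted by cell, Ncam2 was found in 8 of 16 OMP-eGFP cells (50%, interval 24.7 to 75.4) and in 4 of 36 reference cells (11.1%, 3.11 to 26.1), with a log2 ratio of 4.66. The highest OMP-eGFP cells exceeded every reference cell, while many cells of both groups were at 0. Nrp2 ranged from 0 to 296.96 CPM (median 4.04) in OMP-eGFP cells and from 0 to 28.2 CPM (median 0) in reference cells. Nrp2 was found in 7 of 16 OMP-eGFP cells (43.8%, 19.8 to 70.1) and 2 of 36 reference cells (5.56%, 0.68 to 18.7), with a log2 ratio of 4.52. Thinning left the counts of cells for both genes at 8 and 7 of 16, against 4 and 2 of 35.

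The dorsal genes went the other way. Nqo1 ranged from 0 to 4376 CPM (median 0) in OMP-eGFP cells and from 0 to 10295 CPM (median 613) in reference cells. It was found in 5 of 16 OMP-eGFP cells (31.3%, 11.02 to 58.7) and in 27 of 36 reference cells (75%, 57.8 to 87.9). Its log2 ratio was −1.83 pooled, −2.12 against run 1 and −0.83 against run 2, so it was not called. Acsm4 was found in 5 of 16 OMP-eGFP cells and 22 of 36 reference cells, at means of 139.6 and 369.1 CPM, and was not called either. Robo2, a receptor for the guidance cue Slit that is richer in dorsal neurons, was called lower. It was found in 2 of 16 OMP-eGFP cells (0 to 838 CPM) and in 17 of 36 reference cells (0 to 4375 CPM), with a log2 ratio of −2.10. A single OMP-eGFP cell thus held most of the Robo2 signal of its group.

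**Figure D2:**
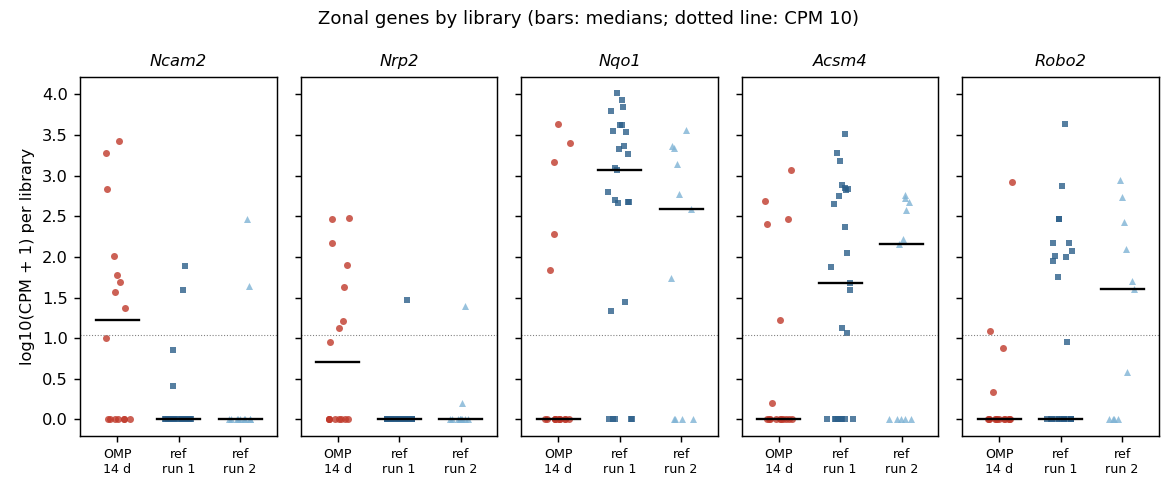
Level of 5 zonal genes in each selected cell, as log10 of CPM + 1 (y axis), for OMP-eGFP cells at 14 days and for the 2 reference runs (x axis), with bars at medians and a dotted line at 10 CPM. Ncam2 and Nrp2 are above the line in 8 and 7 of 16 OMP-eGFP cells, and Nqo1 and Acsm4 in 27 and 22 of 36 reference cells.

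Counted per cell, 7 of the 16 OMP-eGFP cells carried a ventral gene (Ncam2 or Nrp2) without a dorsal one (Nqo1 or Acsm4), 2 carried a dorsal gene without a ventral one, 4 carried both kinds and 3 neither. Of the 36 reference cells, 3 were ventral by this count, 25 dorsal, 3 had both kinds and 5 neither. In the reference, 21 of the 22 cells with Acsm4 also had Nqo1. The 25 OMP-eGFP libraries excluded by the Omp limit stood between these sets, with 6 ventral, 10 dorsal, 4 of both kinds and 5 of neither. Among engrafted OMP-eGFP cells that passed the same limits, 9 were ventral, 3 dorsal, 0 of both kinds and 4 of neither. Uninjured Neurog1-eGFP cells that passed them were ventral in 7 cases and dorsal in 4, with 2 of both kinds and 0 of neither. The balance of ventral and dorsal cells thus varied between these sets, which differ in reporter, injury and source, and its origin was not tested.

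Odorant receptors described the same cells in another way. Among 1116 receptor entries, OMP-eGFP cells had 1 to 5 receptors at 50 CPM or more (median 2.5) and reference cells 1 to 11 (median 2). Exactly 1 receptor was seen in 3 of 16 OMP-eGFP cells (18.8%, 4.05 to 45.6) and in 12 of 36 reference cells (33.3%, 18.6 to 50.97), all 12 of them in run 1. The most abundant receptor reached 1622 to 86332 CPM (median 6925) in OMP-eGFP cells and 148.6 to 96883 CPM (median 7551) in reference cells. It made up 90% or more of the receptor signal in 9 of 16 OMP-eGFP cells and in 23 of 36 reference cells. Run 2 stood apart from run 1 in this respect, with 2 of 11 against 21 of 25 cells.

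The OMP-eGFP cells carried 14 distinct leading receptors, with Olfr180 and Olfr744 leading in 2 cells each. The reference carried 31, with Olfr77 leading in 3 cells, and no leading receptor was common to both groups. With 16 and 36 cells drawing on 1116 entries, few or no shared receptors would be found in any case. A difference in the receptors chosen was not tested. Class I receptors, which are expressed dorsally and bind many water-soluble odorants, form a block around the beta-globin genes on chromosome 7. The leading receptor came from this block in 1 of 16 OMP-eGFP cells (6.25%, 0.158 to 30.2), where it was Olfr623. It did so in 11 of 36 reference cells (30.6%, 16.3 to 48.1), 8 of them in run 1 and 3 in run 2. The Olfr623 cell had Nqo1, at 2555 CPM, and also the ventral gene Ncam2, at 48.4 CPM. Olfr623 made up 59.1% of its receptor signal. Of the 11 reference cells, 8 had Nqo1, as did 19 of the other 25 reference cells.

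Of the markers of younger neurons, Gap43, Dcx and Stmn1 were found in larger shares of the OMP-eGFP cells, and other markers went in either direction. Gap43 ranged from 0 to 668 CPM (median 82.7) in OMP-eGFP cells and from 0 to 1966 CPM (median 0) in reference cells. Cells with Gap43 numbered 12 of 16 in the OMP-eGFP group (75%, 47.6 to 92.7) and 9 of 36 in the reference (25%, 12.1 to 42.2). The means were 206.8 and 155.3 CPM (log2 ratio 0.41, not called), because a few reference cells held high levels. All 12 OMP-eGFP cells with Gap43 also had Stoml3 and the microtubule protein gene Dcx. In the 25 OMP-eGFP libraries under the Omp limit, Gap43 was found in 24, at a mean of 1029 CPM. Gap43 was found in 3 of 16 engrafted OMP-eGFP cells and in 8 of 13 uninjured Neurog1-eGFP cells that passed the same limits.

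Dcx ranged from 5.73 to 3262 CPM (median 619) in OMP-eGFP cells and from 0 to 3402 CPM (median 17.98) in reference cells. It was found in 14 of 16 and 19 of 36 cells, and its log2 ratio of 1.22 pooled fell to 0.77 against run 2, so it was not called. Stmn1, a destabiliser of microtubules, was called higher. It ranged from 0 to 3328 CPM (median 510) in OMP-eGFP cells and from 0 to 1857 CPM (median 53.6) in reference cells, with a log2 ratio of 1.97. Cells with Stmn1 numbered 14 of 16 and 24 of 36, with 9 of 11 in run 2. The list of 19 immature neuron markers had 17 members over the filter, of which 5 were higher (29.4%), 3 lower (17.6%) and 9 neither, with a median of 0.21, beside 23.9% and 12% of all genes. The higher members were Stmn1, its relative Stmn4, the actin regulator gene Dbn1, the histone deacetylase gene Hdac2 and Marcksl1. The lower members were the tubulin gene Tubb2b and the growth genes Crmp1 and Basp1. Basp1 was found in 0 of 16 OMP-eGFP cells (upper limit 18.8%) and 6 of 36 reference cells, and Dpysl3, a relative of Crmp1, in 1 of 16 and 8 of 36. Gng8, a G protein subunit of immature neurons, was found in 0 of 16 OMP-eGFP cells (upper limit 18.8%) and in 4 of 36 reference cells.

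**Figure D3:**
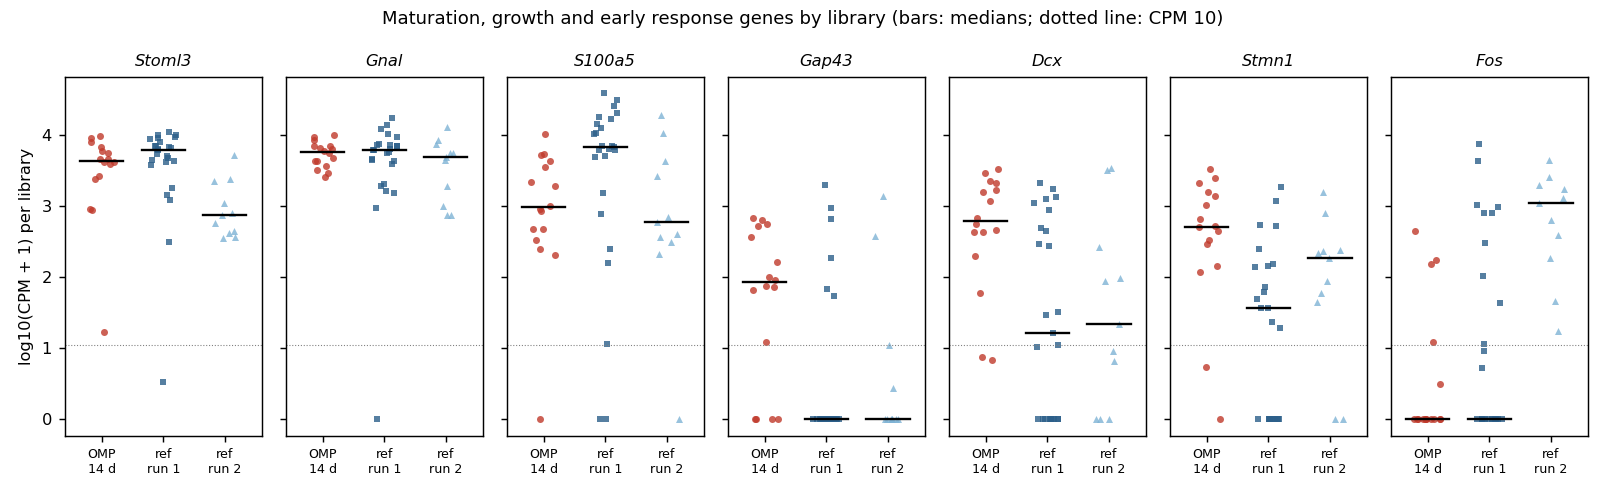
Level of 7 genes in each selected cell, as log10 of CPM + 1 (y axis), for OMP-eGFP cells at 14 days and the 2 reference runs (x axis), with bars at medians and a dotted line at 10 CPM. Stoml3 and Gnal are above the line in all 16 OMP-eGFP cells and 35 of 36 reference cells. Gap43, Dcx and Stmn1 are above the line in larger shares of the OMP-eGFP cells. Fos is above the line in all 11 cells of run 2.

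Of 8 precursor markers, 5 passed the filter, 1 was higher (20%) and 2 lower (40%), beside 23.9% and 12% of all genes. Neurog1 was listed at 0 in all 52 cells and Neurod1 was found in none. Sox11, a transcription factor gene of differentiating neurons, was not called and was found in 13 of 16 OMP-eGFP cells (median 1150 CPM) and 13 of 36 reference cells (median 2.02 CPM). Its means of 1992 and 2830 CPM ran in the opposite order to its medians, since 1 reference cell reached 64209 CPM. The zinc finger factor gene Insm1 was called higher (log2 ratio 2.55) and was found in 5 of 16 OMP-eGFP cells and 3 of 36 reference cells. Nhlh2, a helix-loop-helix factor gene, and Tex15 were called lower, and were found in 1 and 0 of 16 OMP-eGFP cells against 6 and 2 of 36 reference cells. Vim, an intermediate filament gene of young neurons and glia, was found in 3 of 16 and 5 of 36 cells, at means of 30.9 and 45.7 CPM, and was not called. The sum of 8 globose basal cell markers was 100 CPM or more in 1 of 16 OMP-eGFP and 2 of 36 reference cells, and that of 5 horizontal basal cell markers in none.

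S100a5, a calcium-binding protein gene of mature neurons whose level follows odorant stimulation, had a lower median in the OMP-eGFP cells. It ranged from 0 to 10178 CPM (median 957) in OMP-eGFP cells and from 0 to 37817 CPM (median 5506) in reference cells, and was found in 15 of 16 and 33 of 36 cells. The log2 ratio was −1.77 pooled and −2.09 against run 1, but −0.60 against run 2, where the median was 598 CPM. It was therefore not called. Of 7 axon molecules linked to activity, 1 was called higher (Kirrel3, 14.3%) and 0 lower, beside 23.9% and 12% of all genes. Kirrel2, which sorts axons into glomeruli, was found in 8 of 16 OMP-eGFP cells and 23 of 36 reference cells, at means of 358.4 and 526 CPM.

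Among 41 genes of axon guidance and adhesion, 34 passed the filter. Of these, 8 were higher (23.5%), 6 lower (17.6%) and 20 neither, beside 23.9% and 12% of all genes. The list median was 0.09 pooled, 0.02 against run 1 and 0.70 against run 2. Kirrel, an adhesion molecule of the family of Kirrel2, was found in 9 of 16 OMP-eGFP cells (0 to 1403 CPM, median 16.6) and in 4 of 36 reference cells (0 to 117.02 CPM, median 0), with a log2 ratio of 4.30. Epha7, an ephrin receptor gene, was found in 2 of 16 OMP-eGFP cells (0 to 48.7 CPM) and in 12 of 36 reference cells (0 to 5531 CPM), with a log2 ratio of −5.87. Plxna1, a semaphorin co-receptor gene, was found in a like share of cells, 7 of 16 and 18 of 36, but at means of 15.4 and 216.4 CPM. No OMP-eGFP cell exceeded 86.3 CPM of Plxna1, while the highest reference cell had 2936 CPM. Of 71 protocadherin genes, whose proteins give neurites a surface identity, 29 passed the filter. Among these 29, 11 were higher (37.9%) and 4 lower (13.8%), beside 23.9% and 12% of all genes, with a median of 0.68. A gene could pass the filter through the group with the higher mean alone.

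The growth cone and cytoskeleton list had 4 of 34 members higher (11.8%) and 6 lower (17.6%). Actg1, a cytoplasmic actin gene, was found in 14 of 16 OMP-eGFP cells (median 84.6 CPM) and 28 of 36 reference cells (median 245.1 CPM), with a log2 ratio of −1.51. Of 21 presynaptic genes over the filter, 5 were higher (23.8%), 1 lower (4.76%) and 15 neither, beside 23.9% and 12% of all genes. Their median was −0.55 pooled and −0.57 against run 1, but 0.69 against run 2. Pclo, a scaffold protein gene of the active zone, ranged from 0 to 7556 CPM (median 260) in OMP-eGFP cells and from 0 to 956 CPM (median 6.64) in reference cells. It was found in 13 of 16 and 17 of 36 cells, with a log2 ratio of 3.02. Bsn, which encodes the partner scaffold bassoon, was found in 9 of 16 and 6 of 36 cells. The fusion protein gene Snap25 was found in all 16 OMP-eGFP cells and 31 of 36 reference cells and was not called, at means of 1385 and 2228 CPM.

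Cilia genes were called higher in 6 (15.8%) and lower in 2 (5.26%) of 38 members. Their median was 0.22 pooled, 0.14 against run 1 and 1.08 against run 2. Bbs1, a subunit of the complex that sorts cargo into cilia, was found in 9 of 16 OMP-eGFP cells (0 to 549 CPM, median 34.99) and 6 of 36 reference cells (0 to 156.2 CPM, median 0). Voltage-gated and related channel genes had 11 of 44 higher (25%) and 6 lower (13.6%), near the 23.9% and 12% of all genes. The sodium channel gene Scn3a was found in 8 of 16 OMP-eGFP cells and 10 of 36 reference cells, at means of 448.8 and 44.5 CPM, and Scn3b, a sodium channel beta subunit gene, was lower at 305.7 and 1129 CPM. These members went in opposite directions within the same channel family.

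**Figure D4:**
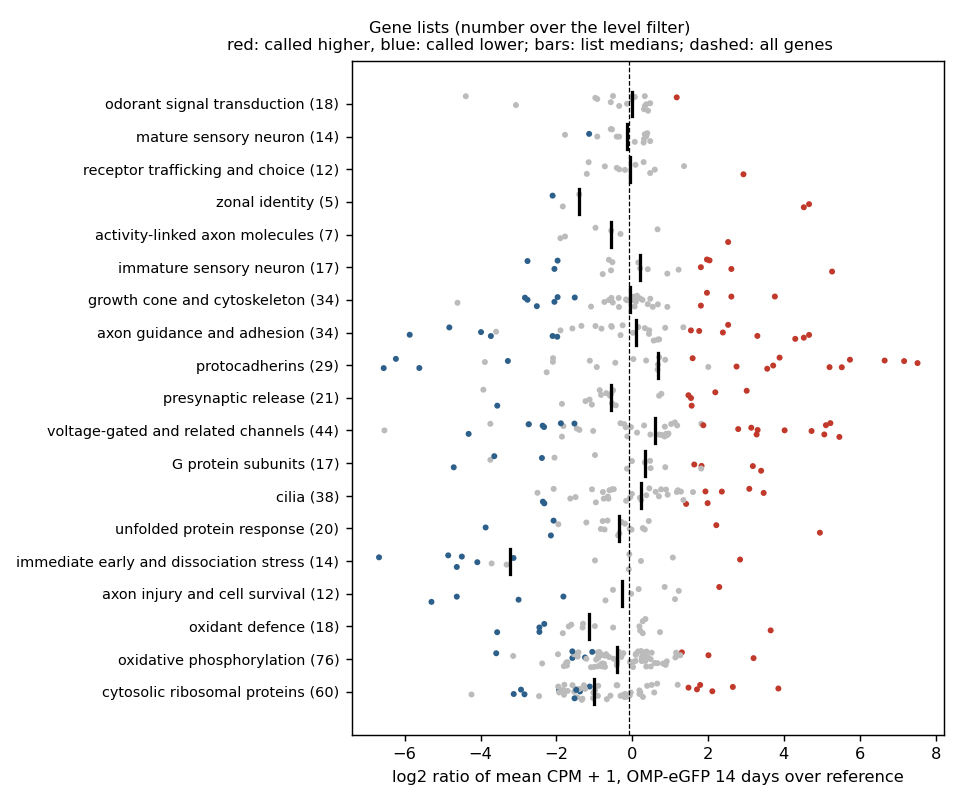
Log2 ratio of mean CPM + 1 in OMP-eGFP cells over reference cells (x axis) for each member of 19 gene lists (y axis, with the number of members over the level filter), with bars at list medians and a dashed line at the all-gene median of −0.08. The signal transduction list has a median of −0.01, and the immediate early genes have the lowest median, −3.22.

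Of 14 early response genes over the filter, 6 were lower (42.9%) in the OMP-eGFP cells, 1 higher (7.14%, Hspa1a) and 7 neither. Of all genes, 12% were lower and 23.9% higher. The median of the early response genes was −3.22 pooled, −0.69 against run 1 and −4.27 against run 2. Fos, a transcription factor gene induced within minutes by stimulation or dissociation, ranged from 0 to 435.3 CPM (median 0) in OMP-eGFP cells and from 0 to 7448 CPM (median 43.9) in reference cells. Fos was found in 4 of 16 OMP-eGFP cells, in 10 of 25 cells of run 1 and in all 11 cells of run 2, with a log2 ratio of −4.08 pooled. Jun was found in 15 of 16 OMP-eGFP cells and 23 of 36 reference cells, at means of 133.3 and 140.7 CPM. Egr1, another early response factor gene, was not called either, at means of 320.02 and 341.2 CPM, nor was the phosphatase gene Dusp1, at 248.8 and 211.9 CPM. The injury response gene Atf3 was found in 0 of 16 OMP-eGFP cells (upper limit 18.8%) and in 5 of 36 reference cells. The part of the run, of dissociation and of depth in the difference was not tested.

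The list of axon injury and survival genes had 1 of 12 members higher (8.33%) and 4 lower (33.3%), beside 23.9% and 12% of all genes. The lower members were Atf3, Bcl2, Bcl2l1 and Stat3, and Bcl2l1, an inhibitor of apoptosis, was found in 7 of 16 OMP-eGFP cells and 11 of 36 reference cells at means of 49.2 and 175.5 CPM. Genes of the unfolded protein response, which couples receptor choice to maturation, had 2 of 20 higher (10%) and 3 lower (15%). Herpud1, a protein of endoplasmic reticulum degradation, was found in 12 of 16 OMP-eGFP cells (median 102.1 CPM) and 13 of 36 reference cells (median 0), with a log2 ratio of 2.22. Ddit3, a transcription factor gene of the same response, was found in 1 of 16 and 7 of 36 cells, with a log2 ratio of −3.86.

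Oxidant defence genes had 1 of 18 members higher (5.56%) and 4 lower (22.2%), beside 23.9% and 12% of all genes. Their median was −1.14. Sod1, the cytosolic superoxide dismutase gene, was found in 12 of 16 OMP-eGFP cells (median 82.3 CPM) and 31 of 36 reference cells (median 183.4 CPM), with a log2 ratio of −2.45. Mt1, a metallothionein gene, was found in 11 of 16 and 32 of 36 cells, with a log2 ratio of −2.32. Both genes are also expressed by other cells of the epithelium. Cytosolic ribosomal protein genes had a median of −1.01 pooled and −1.12 against run 1, but 0.18 against run 2. Of 60 such genes, 6 were higher (10%) and 8 lower (13.3%). Genes of oxidative phosphorylation had 3 of 76 higher (3.95%) and 6 lower (7.89%). Their median was −0.40 pooled and −0.66 against run 1, but 0.42 against run 2.

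The largest differences were named by a rule of size: a call as above, at least 50 CPM on average and at least 30% of cells found in the higher group, and shares whose intervals do not overlap. It was met by 94 of the 2177 genes called higher and 6 of the 1090 called lower in OMP-eGFP cells, among 9107 tested. The interval of a gene found in no cell reached 20.6% with 16 cells and 9.74% with 36. A lower gene thus needed a larger share of cells to pass. Genes found per cell also differed between the groups, so the 2 counts are not compared. The rule used these cells, so the gap between the shares is part of the choice. The 15 highest ratios belonged to Mfn1, N4bp1, Ick, Scamp3, Rhou, Me1, Pde4d, Zfp160, Atr, Plrg1, Ankrd13b, Atg4a, Nol10, Ncoa5 and Pcdh8. Each was found in 5 to 8 of 16 OMP-eGFP cells and in 0 to 2 of 36 reference cells, and Scamp3, Rhou, Zfp160 and Ankrd13b were listed at 0 in every reference cell.

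Mfn1, a GTPase that fuses mitochondria, ranged from 0 to 2887 CPM (median 1.26) in OMP-eGFP cells and from 0 to 1.8 CPM in reference cells, with a log2 ratio of 7.68. Pde4d, a second cyclic AMP phosphodiesterase gene, was found in 7 of 16 OMP-eGFP cells (0 to 1724 CPM) and 2 of 36 reference cells (0 to 47.5 CPM), with a log2 ratio of 6.56. Plrg1, a spliceosome protein gene, was found in 8 of 16 and 2 of 36 cells, with a log2 ratio of 6.04. Me1, the cytosolic malic enzyme gene, was found in 6 of 16 OMP-eGFP cells and 0 of 36 reference cells (upper limit 8.33%), and also in 8 of 13 uninjured Neurog1-eGFP cells. Plrg1 and Ankrd13b were each found in 6 of these 13 cells, Scamp3 and Rhou in 0, and the other genes of the 15 in 1 to 4. Pcdh8, an activity-regulated protocadherin gene, was found in 6 of 16 and 1 of 36 cells, and in 10 of 25 OMP-eGFP libraries under the Omp limit.

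Of the 6 lower genes, Cyp2f2, Rgs5, Sult1c1 and Sdc4 were listed at 0 in all 16 OMP-eGFP cells. Cyp2f2, a cytochrome P450 of sustentacular cells, was found in 16 of 36 reference cells, with a mean of 452.98 CPM and a highest cell of 12119.5 CPM. Sult1c1, a sulfotransferase gene, was found in 17 of 36 reference cells (median 7.76 CPM, highest 2317 CPM) and at similar means in runs 1 and 2, 316.1 and 319.2 CPM. Rgs5, a regulator of G protein signalling known from pericytes, was found in 10 of 11 cells of run 2 and 5 of 25 cells of run 1. Sdc4, a heparan sulfate proteoglycan gene, likewise had 602 CPM in run 2 and 68.7 CPM in run 1. The sustentacular background was present in every reference cell, so any group of reference cells overlaps with it. The part of that background in these differences was not tested.

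The remaining lower genes were Acot2, a mitochondrial thioesterase gene, and Wdr17. Acot2 was found in 0 of 16 OMP-eGFP cells and 13 of 36 reference cells, with a log2 ratio of −4.94. Wdr17, a WD repeat protein gene, ranged from 0 to 237.4 CPM (median 0) in OMP-eGFP cells and from 0 to 2546 CPM (median 32.95) in reference cells, and was found in 2 of 16 and 23 of 36 cells. In engrafted OMP-eGFP cells Wdr17 was found in 15 of 16, at a mean of 610 CPM, so the low level was not shared by the other OMP-eGFP sort. In the 25 OMP-eGFP libraries under the Omp limit it was found in 8, at a mean of 305.2 CPM, and with the Omp limit lowered to 500 CPM its ratio was 0.19 in place of −3.65.

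**Figure D5:**
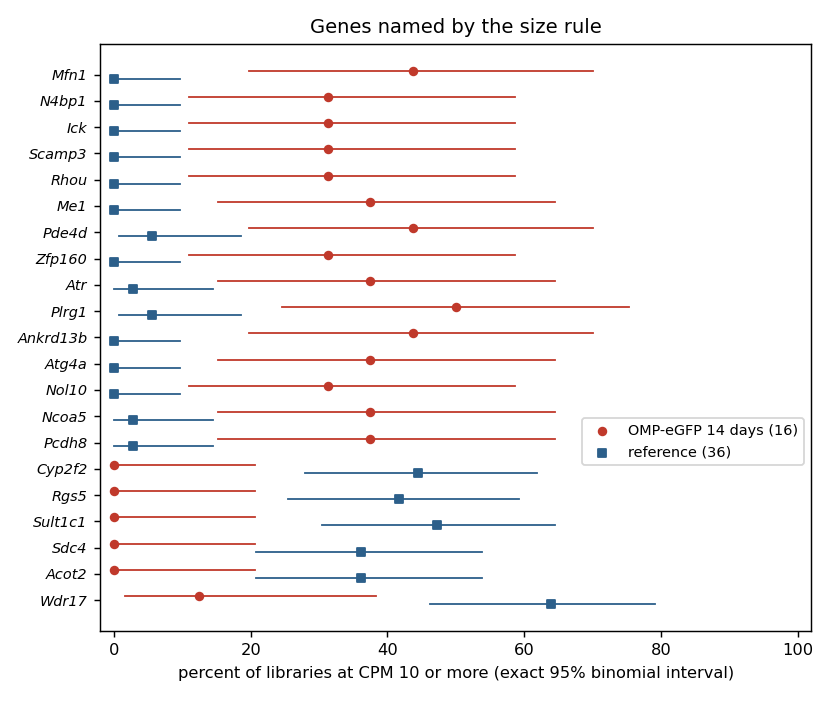
Percent of cells with 10 CPM or more (x axis, with exact 95% binomial intervals) for the 21 genes named by the size rule (y axis), in OMP-eGFP cells at 14 days and in reference cells. The rule required intervals that do not overlap, and Cyp2f2, Rgs5, Sult1c1, Sdc4 and Acot2 lie at 0 in the OMP-eGFP cells.

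Most markers of other cell types were nearly missing from the OMP-eGFP cells. The 10 immune, 5 Bowman gland, 5 fibroblast and 5 erythroid markers were at 0 in all 16, and the largest sum of 9 sustentacular markers outside the selection rule was 0.873 CPM. In the reference that sum ranged from 0 to 12125 CPM and was 100 CPM or more in 14 of 36 cells. The immune sum reached 3914 CPM and the glial sum 17261 CPM in the reference, each with most of its signal in 1 cell. Apoe, a lipid carrier gene of glia and other supporting cells, was found in 3 of 36 reference cells. An exception was Pou2f3, a transcription factor gene of microvillar cells. It was found in 6 of 16 OMP-eGFP cells (0 to 1940 CPM) and 2 of 36 reference cells (0 to 119.4 CPM), with a log2 ratio of 4.68. The other 6 microvillar markers were at 0 in the OMP-eGFP cells, among them Trpm5, the defining channel of the type. The sum of 5 endothelial and pericyte markers reached 7.34 CPM in OMP-eGFP cells and 2811 CPM in reference cells, where all of it came from Rgs5. The sum of 3 respiratory ciliated markers was 100 CPM or more in 1 of 16 and 3 of 36 cells, and that of 4 markers of guanylate cyclase D neurons in 3 of 16 and 4 of 36 cells. In the OMP-eGFP cells all of the latter sum came from Car2. Car2 was found in 7 of 16 OMP-eGFP cells and 2 of 36 reference cells and was not called.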

How the data were processed

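The deposited tables held 1 column per library. The authors deposited signal, that is estimated fragments per gene scaled to nearly equal totals (99.9% of nonzero values were not whole), and FPKM values. The series held 469 libraries, 192 of them reference. Reads were handled with Cuffnorm, Cufflinks 2.2.1, STAR 2.5.2a and FastQC on build mm9, per the submitters' processing notes, in roles not stated. For the annotation, its name is not given in the sources used here. Of 23308 entries, 27 with names altered into dates (0.418% of the signal) were left out. Signal was rescaled to CPM of the column sum. Because the scaling removed the depth, fragments were recovered from the value of 1 fragment in each library (tolerance 0.02). The smallest recovered depth was 64902 fragments and the largest 1934435. No doublet caller was run. FPKM served as an alternative only. Ratios used a pseudocount of 1 and genes with a mean of 5 CPM or more in either group, called at 2-fold against the pooled reference and each run. Shares used 10 CPM and exact Clopper-Pearson 95% intervals. A share of 0 of n cells was given the limit of 3 divided by n. Names followed the size rule in the report, leaving out receptor, Gm, Rik, mitochondrial and pseudogene entries and the 8 selection genes, or membership in 33 gene lists. The selection, members and lists were chosen with earlier results of these data known. The calling rule was tried on simulated data without a difference between reference runs, which do not show how often calls here are wrong. Python 3.11.15, numpy 2.4.6, pandas 2.3.3, scipy 1.17.1 and matplotlib 3.10.9 were used. Alternatives changed the pseudocount, level filter, selection limits, reference run, averaging, depth and table.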

Additional observations from a re-analysis of the deposited data

How the results depend on the processing

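The shares of genes called higher (23.9%) and lower (12%) moved by more than 1.5 times in some settings. A pseudocount of 10 gave 6.73% lower. Reference run 1 alone gave 37.1% higher and 32.7% lower, and run 2 alone 44.3% and 27%, since only 1 ratio then had to pass. The mean of log2 values gave 44.97% and 2.59% over 2706 genes, and the 10% trimmed mean 43.6% and 5.18% over 5657. Without the highest library of the higher group, chosen after seeing the data, the shares were 15.3% and 5.13% over 7060 genes. Calls were 66.6% higher in the main setting, 76.7% with Omp levels matched in range (also chosen after seeing the data), 77.1% with a sustentacular sum below 1000 CPM, 54.8% with one below 20000 CPM, 53.1% against run 1 alone, 94.6% for the mean of log2 values and 89.4% for the trimmed mean. The last 2 settings placed the median of all genes at 1.43 and 1.62. Among the called genes followed through the settings and the list medians of 2-fold or more, direction turned in 4 values: the ribosomal median was 0.15 against run 2 alone and 0.026 for the mean of log2 values, the oxidant defence median was 0.54 for the mean of log2 values, and Wdr17 was at 0.19 with an Omp limit of 500 CPM. Of 16 list medians under 2-fold, 14 changed sign in at least 1 setting, 6 of them against run 2 alone. The cause was not tested. All 21 genes named by size stayed called in every setting run but 3: 14 with the mean of log2 values, 19 with an Omp limit of 500 CPM (not Atr and Wdr17) and 20 with a sustentacular sum below 20000 CPM (not Nol10). These genes were chosen from the same cells for large ratios, high levels and calls against each run. Staying called against run 1 or run 2 alone, or with other level filters, therefore largely followed from the choice. No paired analysis was possible because each group is 1 sample and the labels name no animals. Depth limits the reading of genes missing from a cell, more so in the shallower reference.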

Other observations

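Sex-linked genes did not separate the groups. Xist, the RNA of the inactive X chromosome, was found in 14 of 16 OMP-eGFP cells at 14 days and 22 of 36 reference cells, and Y-linked genes in 0 cells of either group. In engrafted OMP-eGFP cells that passed the same limits, Xist was found in 0 and Y-linked genes in 6 of 16.

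Of 17 G protein subunit genes over the level filter, 4 were called higher (23.5%) and 3 lower (17.6%) in OMP-eGFP cells. All genes gave 23.9% and 12%, and Gnal, Gnb1 and Gng13 of the olfactory cascade were among the 17. Gnao1, the alpha subunit gene known from vomeronasal neurons, was found in 15 of 16 OMP-eGFP cells and 23 of 36 reference cells, at means of 369.6 and 263.6 CPM, while Trpc2, the channel of those neurons, was listed at 0 in the OMP-eGFP cells.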
